A study of Homo sapiens with 8 samples.

Results

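Transcripts of 36 chaperone and heat shock genes were followed in RKO and SW480, 2 established lines of human colorectal cancer cells, after expression of the cytochrome P450 gene CYP1B1 had been raised or lowered. The members were chosen by name: heat shock factors, known targets of HSF1, heat shock proteins, their co-chaperones and the subunits of the CCT chaperonin. They were chosen with earlier results of these data known. All 36 were among the 16829 genes of the deposited table, and all 36 passed the filter on low counts that left 14157 genes to be tested, although the small heat shock protein gene CRYAB passed through its counts in SW480. RKO control cells were compared with RKO cells that overexpressed CYP1B1, and SW480 cells carrying a non-targeting short hairpin (shNT) with SW480 cells whose hairpin targets CYP1B1 (shCYP1B1). Each of the 4 groups held 2 libraries, made from stranded mRNA of cells that had received lentivirus. A single hairpin was used, so off-target effects cannot be told apart from those of lower CYP1B1. Whether the 2 replicates of a group were separate cultures is not stated in the labels, and the p-values therefore rest on a spread between libraries that may be technical.

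Chaperones bind unfolded proteins and help them fold, and many of their genes are switched on together when cells meet heat or other protein damage. HSF1 is the transcription factor behind that response: kept inactive by chaperones, it is released under stress, forms trimers and binds heat shock elements, which are repeats of the unit nGAAn in alternating orientation. HSP70 proteins work in cycles driven by ATP that J-domain proteins start and nucleotide exchange factors end, HSP90 acts on partly folded clients with its own co-chaperones, and CCT folds actin and tubulin in its chamber. Tumour cells, including those of the colon, often hold high levels of HSP70, HSP90 and HSPB1.

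Promoter windows of 300 bases around the start sites (RefSeq, GRCh38.p14) were found for 32 of the 36 members, and were not found by symbol for CCT6A, CRYAB, FKBP4 and HSF1. A heat shock element of 3 units, spelled GAANNTTCNNGAA or TTCNNGAANNTTC and searched on both strands, stood in at least 1 window of 8 of the 32 members: CHORDC1, DNAJA1, DNAJB6, HSP90AA1, HSP90AB1, HSPA8, HSPD1 and SERPINH1. Among all 35116 windows in the table, 172 (0.49%) held such a match, and 8 of the 48 windows of members (16.7%) did. The shorter 2-unit element, GAANNTTC or TTCNNGAA, which lies inside every 3-unit match, was present in 20 of the members' 48 windows (41.7%) and in 13.49% of all windows. A match is a run of letters, not a measured binding site. Targets of HSF1 were among the genes looked for when the members were chosen, so their higher shares follow in part from that choice. The stretches below were chosen because they come from the genes with the largest change (HSPA1A and HSPA1B), from the J-domain gene DNAJB1, and from 2 genes that rose in SW480 and whose 3-unit matches lie outside annotated exons (HSP90AB1 and DNAJB6). Capitals mark the matched letters, and each stretch reads 5′ to 3′ on the gene's own strand, upstream of an annotated start site. HSP90AB1 and DNAJB1 have several annotated start sites, and the window with the most matches is shown. The other windows of HSP90AB1 held no match. They lie at chr6:31815422-31815459 (+) for HSPA1A, chr6:31827618-31827655 (+) for HSPA1B, chr19:14518422-14518489 (-) for DNAJB1, chr6:44247763-44247858 (+) for HSP90AB1 and chr7:157336858-157336900 (+) for DNAJB6.
HSPA1A: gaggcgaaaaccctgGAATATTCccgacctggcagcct
HSPA1B: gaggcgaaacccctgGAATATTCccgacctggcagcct
DNAJB1: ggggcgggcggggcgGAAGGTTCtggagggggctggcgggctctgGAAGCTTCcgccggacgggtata
HSP90AB1: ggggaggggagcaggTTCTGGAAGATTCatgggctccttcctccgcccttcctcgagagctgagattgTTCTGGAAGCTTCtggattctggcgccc
DNAJB6: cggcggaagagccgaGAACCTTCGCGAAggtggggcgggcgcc
The stretches of HSPA1A and HSPA1B, neighbouring genes on chromosome 6, differ at 1 of 38 bases. HSP90AB1 carries a pair of 3-unit matches.

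Library totals ran from 31550173 to 34921085 counts. CYP1B1 itself followed the labels: 0.697 and 0.726 CPM (read counts scaled to library size) in RKO control, 443 and 526 CPM under overexpression, 1.43 and 2.20 CPM in SW480 shNT and 0.354 and 0.290 CPM in shCYP1B1. The 2 overexpression libraries stood further apart than any other pair, with 681 of 10090 genes differing over 1.5-fold between them against 61 to 312 in the other groups, and with 7 of the 36 members beyond that limit against 0 in each other group. Of 8 colorectal epithelial markers, EPCAM, KRT8, KRT18 and CDX2 exceeded 1 FPKM (fragments scaled to gene length and library size) in every RKO library, while LGALS4 was at 0, and 6 did so in SW480. Their summed level was 154 to 159 FPKM in RKO control, 167 to 177 under overexpression, 3019 to 3133 in shNT and 3259 to 3283 in shCYP1B1. Leukocyte markers summed to 419 to 461 FPKM in RKO control, 393 to 407 under overexpression, 5.07 to 5.99 in shNT and 14.9 to 15.5 in shCYP1B1. Of these, only CD68 exceeded 1 FPKM in every RKO library, and CD68 and CD14 did in every SW480 library, with PTPRC and CD3E under 1 FPKM everywhere. Endothelial markers stayed at or below a sum of 0.301 FPKM and fibroblast markers below a sum of 5 FPKM. The part of these shifts in the results was not tested.

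In RKO, CYP1B1 overexpression came with higher transcript levels across most of the chaperone set, led by the inducible HSP70 genes. Of the 36 members, 28 rose and 2 fell at an adjusted p below 0.05 (quasi-likelihood test of edgeR, adjusted by Benjamini-Hochberg over all genes tested). Of all genes 27.6% were called, 13.8% higher and 13.8% lower. The members' median log2 fold change was 0.51, with or without CRYAB, against 0 for all genes. In 30 members both overexpression libraries lay above both controls, as did 28.8% of all genes, and in 2 members both lay below, as did 30% of all genes. As a share of all counts, the 36 members took 1.68% and 1.64% in the control libraries and 2.09% and 2.48% under overexpression. In bulk RNA, a change in the make-up of the cells and a change in RNA per cell cannot be told apart.

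**Figure D1:**
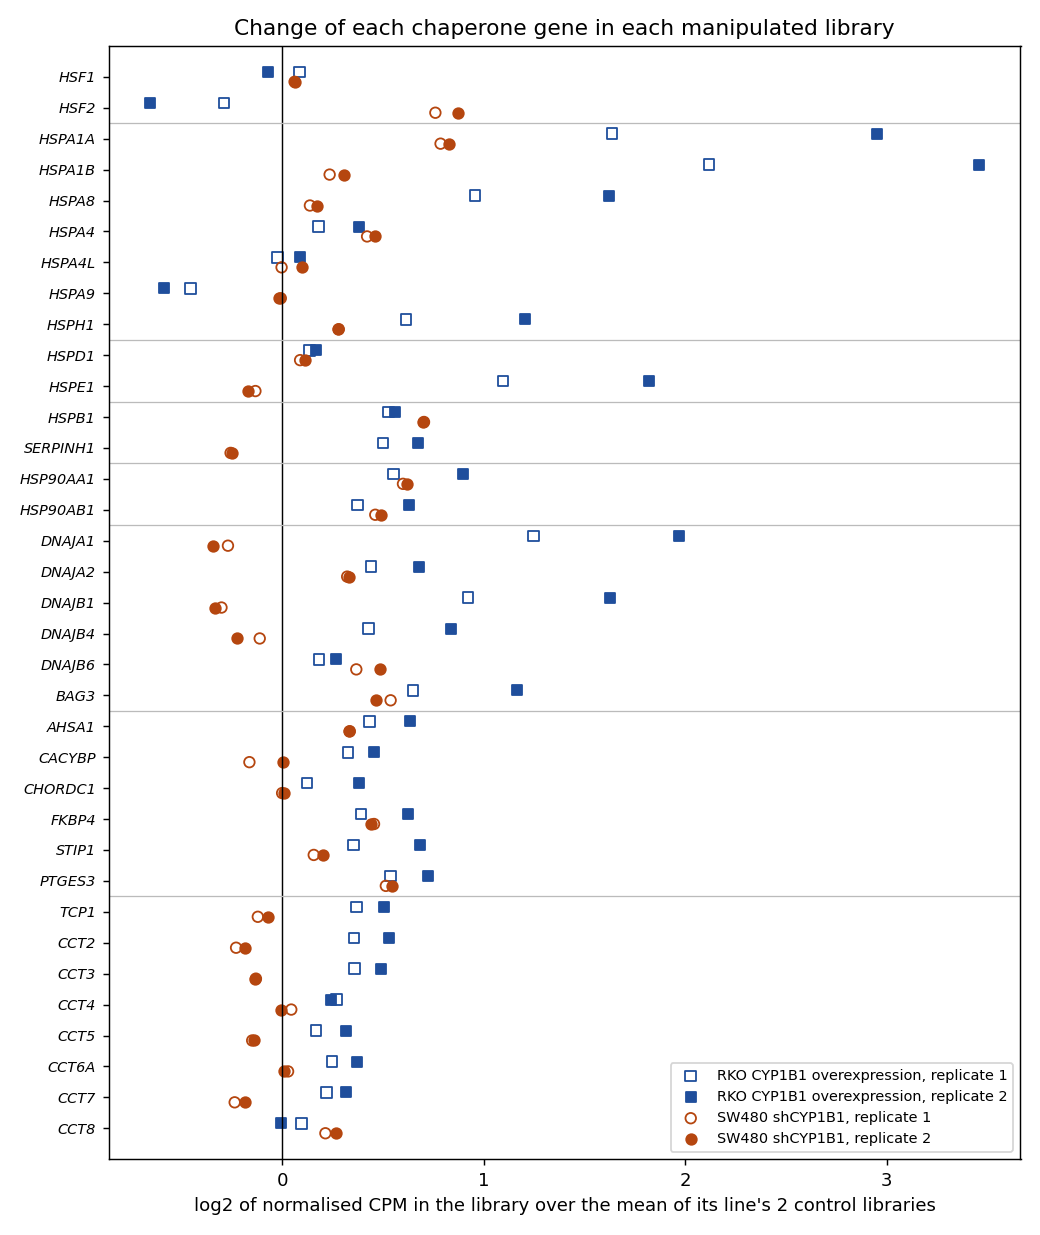
Log2 of the normalised CPM of each chaperone gene in each manipulated library over the mean of the 2 control libraries of its line (x axis), for RKO overexpression (squares) and SW480 shCYP1B1 (circles), with genes on the y axis grouped by role and CRYAB left out. Most squares lie right of 0, with medians of 0.37 in replicate 1 and 0.56 in replicate 2, while the circles have medians of 0.11 and 0.14.

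The heat shock factors did not rise with the chaperones. HSF1, the master regulator of the stress response, measured 167 and 171 CPM in the control libraries and 179 and 161 CPM under overexpression. Its groups overlapped (log2 fold change 0.01 ± 0.07, value ± SE here and below, adjusted p = 0.972 in edgeR). HSF2, a related factor that can form mixed trimers with HSF1, measured 45.7 and 49.7 CPM in control and 39.1 and 30.3 CPM under overexpression. Both overexpression libraries lay below both controls, and HSF2 fell by 0.46 ± 0.14 on the log2 scale (adjusted p = 0.0319 in edgeR). That call was lost when any 1 of 5 libraries was removed. Taking away control replicate 1 gave -0.52 (adjusted p = 0.0878), control replicate 2 gave -0.39 (adjusted p = 0.203) and overexpression replicate 2 gave -0.29 (adjusted p = 0.0842), and either shCYP1B1 library -0.45 (adjusted p at least 0.0531).

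Among the HSP70 genes, the stress-inducible HSPA1A and HSPA1B changed most. HSPA1B measured 20.7 and 21.6 CPM in control and 91.7 and 232 CPM under overexpression, a 7.66-fold difference (log2 2.94 ± 0.32, adjusted p = 0.000139 in edgeR). HSPA1A was low in this line, at 1.12 and 1.11 CPM in control and 3.47 and 8.64 CPM under overexpression, a 5.39-fold difference (log2 2.43 ± 0.38, adjusted p = 0.00099). The overexpression libraries of both genes lay above the controls, replicate 2 higher than replicate 1. The 2 genes encode nearly the same protein and share sequence: 71.2% of the 75-base stretches of the HSPA1A transcript also occur in HSPA1B (GENCODE release 29), so how reads were divided between them is uncertain. Their sum measured 21.8 and 22.7 CPM in control and 95.2 and 241 CPM under overexpression, 7.55-fold higher (log2 2.92 ± 0.32, adjusted p = 0.00014). Its size rests on overexpression replicate 2: without that library the log2 fold change of the sum was 2.10, that of HSPA1B 2.12 and that of HSPA1A 1.63, all still past the threshold in edgeR.

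HSPA8, the constitutive cytosolic HSP70, is far more abundant. It rose 2.51-fold, from 1061 and 925 CPM to 1927 and 3062 CPM (log2 1.33 ± 0.16, adjusted p = 0.000241 in edgeR). HSPH1, an HSP110 protein that exchanges the nucleotide of HSP70, went from 23.8 and 22.3 CPM to 35.3 and 53.1 CPM (log2 0.94 ± 0.15, adjusted p = 0.000922). For both genes the groups did not overlap. HSPA4, another HSP110 family member, rose by only 0.28 (adjusted p = 0.0133), and that call was lost without control replicate 1 (0.29, adjusted p = 0.0722) or control replicate 2 (0.28, adjusted p = 0.0833). HSPA4L had a log2 fold change of 0.03 (adjusted p = 0.78). HSPA9, the mitochondrial HSP70, went the other way, from 1606 and 1648 CPM to 1188 and 1084 CPM, and fell by 0.52 ± 0.06 on the log2 scale (adjusted p = 0.000262).

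HSPE1 and HSPD1, which encode the lid and the barrel of the mitochondrial chaperonin, share a promoter region. HSPE1 measured 5.80 and 7.25 CPM in control and 13.9 and 23.0 CPM under overexpression, with no overlap (2.83-fold, log2 SE 0.22, adjusted p = 0.000722 in edgeR). Its partner HSPD1, at 1562 and 1537 CPM in control and 1704 and 1743 CPM under overexpression, had a log2 fold change of 0.15 that missed the threshold (adjusted p = 0.0556). HSPD1 passed when either overexpression library was left out (0.17 and adjusted p = 0.00263 without replicate 1, 0.14 and adjusted p = 0.0165 without replicate 2). The low count of HSPE1 should be read with its sequence, since 22.3% of its 75-base stretches recur in other transcripts, 13.6% in the read-through gene HSPE1-MOB4.

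HSPB1, a small heat shock protein that holds unfolded proteins, rose by 0.55 ± 0.07 (adjusted p = 0.000308 in edgeR), from 550 and 509 CPM to 764 and 781 CPM. SERPINH1, the collagen chaperone of the endoplasmic reticulum also known as HSP47, rose by 0.59 (adjusted p = 0.000311). CRYAB had 0 counts in both control libraries and 6 and 0 counts under overexpression, too few for a fold change. The HSP90 genes moved together: HSP90AA1, the inducible form, went from 2176 and 2019 CPM to 3075 and 3914 CPM (log2 0.74 ± 0.09, adjusted p = 0.000311), and HSP90AB1, the constitutive form, from 2423 and 2256 CPM to 3032 and 3615 CPM (log2 0.51, adjusted p = 0.000877). In all of these except CRYAB, both overexpression libraries were above both controls.

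J-domain proteins deliver clients to HSP70 and start its ATP cycle. DNAJA1 had the largest change after the HSPA1 genes, from 142 and 140 CPM to 334 and 551 CPM (log2 1.65 ± 0.17, adjusted p = 0.000113 in edgeR). DNAJB1, a classical heat shock J-domain gene, went from 92.0 and 88.1 CPM to 171 and 278 CPM (log2 1.32 ± 0.16, adjusted p = 0.000311). BAG3, which links HSP70 to selective autophagy, went from 81.1 and 78.3 CPM to 125 and 179 CPM (log2 0.93 ± 0.13, adjusted p = 0.000528). In all 3 genes the groups were apart and replicate 2 was the higher overexpression library. DNAJA2 rose by 0.56 (adjusted p = 0.000724) and DNAJB4 by 0.65 (adjusted p = 0.0246), the latter losing its call when control replicate 1 (0.40, adjusted p = 0.199) or overexpression replicate 2 (0.43, adjusted p = 0.0713) was left out. DNAJB6, whose promoter holds a 3-unit match, had a log2 fold change of 0.23 and did not pass (adjusted p = 0.111), although it did without overexpression replicate 1 (0.27, adjusted p = 0.00918). Of its 75-base stretches 39.8% recur in other transcripts, 39.5% in AP001000.1, so its counts are uncertain in both lines.

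All 6 HSP90 co-chaperones rose, by 0.26 to 0.63. The largest changes were in PTGES3 (p23, which stabilises the closed form of HSP90; 0.63), AHSA1 (which speeds its ATPase; 0.54), STIP1 (HOP, the bridge from HSP70 to HSP90; 0.53) and FKBP4 (an immunophilin of steroid receptor complexes; 0.51). CACYBP rose by 0.39. The smallest change was in CHORDC1 (0.26, adjusted p = 0.046 in edgeR). Its call was lost when any 1 library other than overexpression replicate 1 was left out, for example at 0.12 (adjusted p = 0.141) without overexpression replicate 2 and 0.23 (adjusted p = 0.23) without control replicate 2. Of the 8 CCT subunits, which stack into the cytosolic chaperonin rings, 7 rose, by 0.25 to 0.45: CCT2 0.45, TCP1 0.44, CCT3 0.43, CCT6A 0.31, CCT7 0.27, CCT4 0.26 and CCT5 0.25. CCT8 did not pass (0.05, adjusted p = 0.651). Calls for 4 subunits depended on a control library: CCT4 was lost without control replicate 1 (0.23, adjusted p = 0.0811), CCT6A (0.26, adjusted p = 0.0768) and CCT7 (0.23, adjusted p = 0.083) without replicate 2, and CCT5 without either (0.27, adjusted p = 0.0628 and 0.23, adjusted p = 0.113). With RKO fitted on its own, HSF2, HSPA4, DNAJB4, CHORDC1, CCT4, CCT5, CCT6A and CCT7 did not pass (adjusted p from 0.0546 to 0.141). The number of members higher changed with the library left out, as did the number of all genes called, and the ranges of both are given below.

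**Figure D2:**
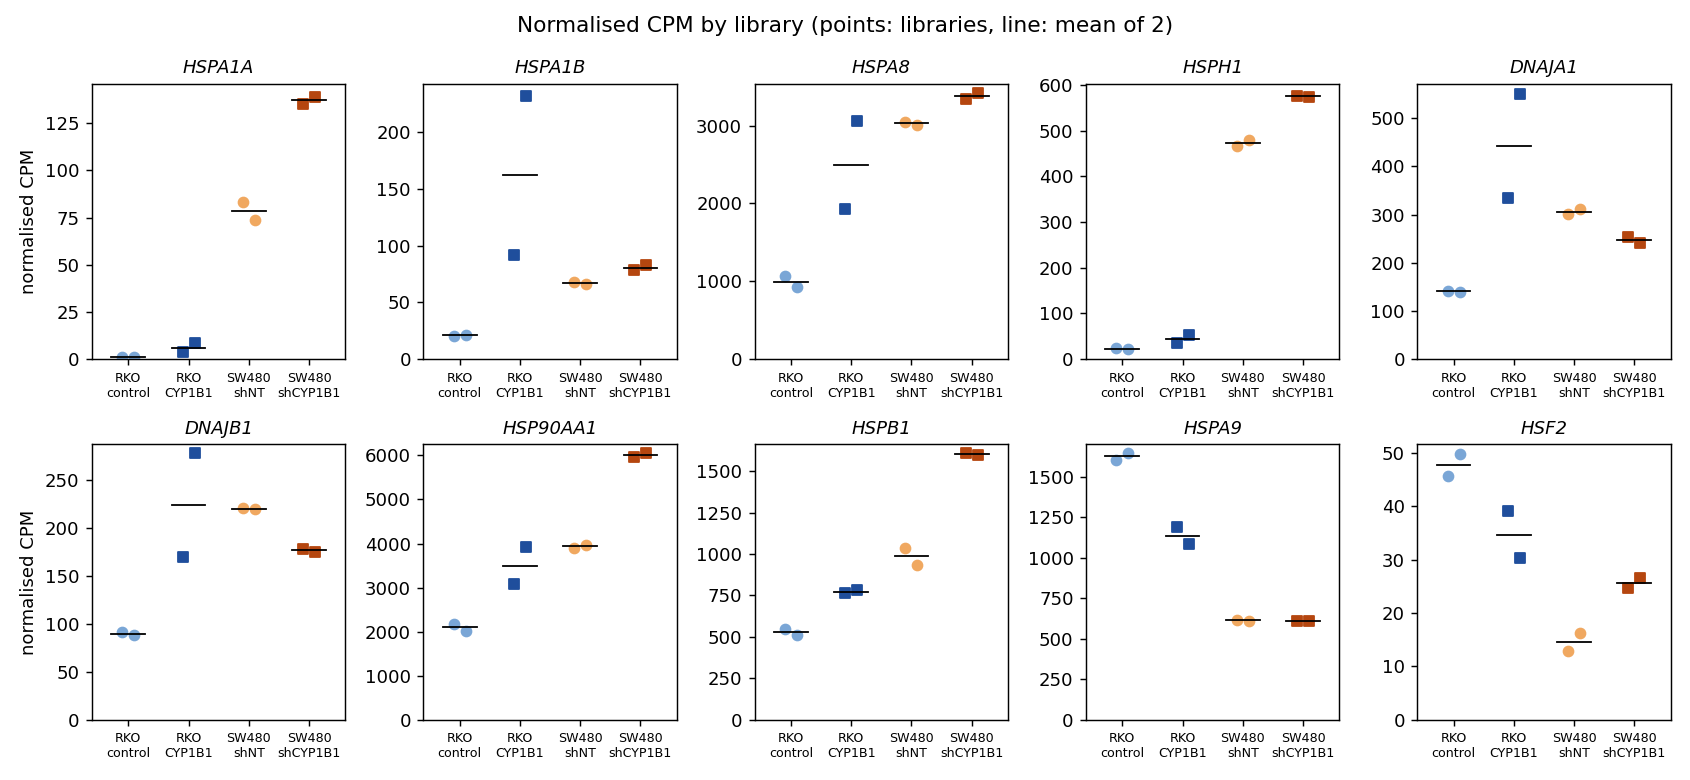
Normalised CPM (y axis, linear from 0) of 10 chaperone genes in each library (points), by group (x axis), with a line at the mean of 2 libraries. In RKO the overexpression points of HSPA1B lie at 91.7 and 232 CPM above controls at 20.7 and 21.6, while in SW480 the groups lie close for HSPA1B and apart for HSPB1 and HSP90AA1.

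Most members that rose in RKO were higher in overexpression replicate 2 than in replicate 1, many of them by little. Of the 28 that rose, 27 were higher in replicate 2 than in replicate 1, and over 35 members without CRYAB 30 were. Among 9528 genes with at least 10 CPM under overexpression, whether or not they rose, 46.3% were higher in replicate 2. The share among all genes that rose was not computed, so the 27 of 28 have no matching background. A ratio of at least 1.2 was reached by 11 members and by 13.04% of the 9528 genes. The median ratio of replicate 2 to replicate 1 was 1.14 for the 35 members and 0.985 for the 9528 genes. Against the control mean, the members' log2 values had a median of 0.37 in replicate 1, from -0.45 to 2.12, with 32 of 35 above 0. In replicate 2 the median was 0.56, from -0.66 to 3.46, with 31 of 35 above 0. Each overexpression library placed most members above control, replicate 2 by more. Both were set against the same control mean, so they are not independent, and the share of all genes above 0 was not computed. CYP1B1 was also higher in replicate 2, at 526 against 443 CPM.

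In SW480, knockdown of CYP1B1 came with higher levels of HSPB1, both HSP90 genes and several HSP90 co-chaperones, while most other members missed the threshold. HSPA1A passed as well, a call lost with DESeq2 (0.83, adjusted p = 0.122). The sum of HSPA1A and HSPA1B, which share sequence, missed the threshold (0.58, adjusted p = 0.109 in edgeR). Of 36 members, 13 rose and 3 fell (edgeR, adjusted p below 0.05), against 50.6% of all genes called, 25.3% higher and 25.3% lower. The median log2 fold change was 0.13 (0.10 without CRYAB), and that of all genes 0.00. Both shCYP1B1 libraries lay above both shNT libraries in 20 members and below them in 10, compared with 40.3% and 40.4% of all genes. The members' share of counts was 2.05% and 2.03% in shNT and 2.40% and 2.43% in shCYP1B1. The counts of members leaned on single libraries, of RKO as well as SW480. So did the number of all genes called, and the ranges of both are given below. In the fit the 4 groups share 1 estimate of the spread. With SW480 fitted alone, 18 members rose and 8 fell, and the number of all genes called stayed within 1.5 times that of the fit over all 8 libraries.

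HSF2, which fell in RKO, rose in SW480. It measured 12.8 and 16.2 CPM in shNT and 24.6 and 26.6 CPM in shCYP1B1, with no overlap (log2 0.82 ± 0.15, adjusted p = 0.000841 in edgeR). HSF1 measured 108 and 101 CPM in shNT and 109 CPM in both shCYP1B1 libraries (log2 0.06 ± 0.07, adjusted p = 0.503).

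HSPA1A rose 1.75-fold, from 83.2 and 73.8 CPM to 135 and 139 CPM, with no overlap (log2 0.81 ± 0.22, adjusted p = 0.00908 in edgeR). The call was lost when any 1 SW480 library was left out, at 0.73 to 0.91 (adjusted p from 0.0532 to 0.106), and with DESeq2 (0.83, adjusted p = 0.122). HSPA1B, at 67.6 and 65.8 CPM in shNT and 78.6 and 82.4 CPM in shCYP1B1, had a log2 fold change of 0.27 ± 0.29 (adjusted p = 0.464). The sum of both genes, from 151 and 140 CPM to 214 and 222 CPM, missed the threshold (log2 0.58 ± 0.29, adjusted p = 0.109). Without either RKO overexpression library the sum passed at the same size (0.58, adjusted p at most 6.31e-11), as did HSPA1B (0.27, adjusted p at most 0.000931). HSPA4 rose by 0.44 (adjusted p = 0.000406). HSPA8 (0.15, adjusted p = 0.43) and HSPH1 (0.28, adjusted p = 0.101) missed the threshold and passed without either overexpression library, at the same sizes (adjusted p at most 0.00306 and 1.62e-06). HSPA9 (-0.01) and HSPA4L (0.05) did not pass.

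HSPB1 had the smallest adjusted p among the members, rising from 1035 and 937 CPM to 1606 and 1599 CPM (log2 0.70 ± 0.07, adjusted p = 8.99e-06 in edgeR). HSP90AA1 rose from 3896 and 3974 CPM to 5964 and 6049 CPM (log2 0.61 ± 0.09, adjusted p = 0.000223), and HSP90AB1 from 2049 and 2014 CPM to 2799 and 2857 CPM (log2 0.48 ± 0.08, adjusted p = 0.00038). The knockdown libraries of these 3 genes agreed closely and were all above shNT. CRYAB had 16 and 12 counts in shNT and 20 and 28 in shCYP1B1 (adjusted p = 0.417). SERPINH1, which rose in RKO, fell by 0.25 (adjusted p = 0.0133), a call lost without any 1 SW480 library (falls of 0.21 to 0.28, adjusted p from 0.0658 to 0.14). HSPD1 (0.10) and HSPE1 (-0.15) missed the threshold. HSPD1 passed without either overexpression library (0.10, adjusted p at most 0.0205).

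PTGES3 rose from 496 and 485 CPM to 701 and 715 CPM (log2 0.53 ± 0.07, adjusted p = 0.000108 in edgeR), and FKBP4 from 487 and 476 CPM to 661 and 655 CPM (log2 0.45 ± 0.08, adjusted p = 0.00065). BAG3 rose from 74.7 and 77.8 CPM to 111 and 105 CPM (log2 0.50 ± 0.13, adjusted p = 0.00707). In each gene both shCYP1B1 libraries were above both shNT libraries. The call for BAG3 was lost without shNT replicate 1 (0.48, adjusted p = 0.0716), shNT replicate 2 (0.54, adjusted p = 0.0521) or shCYP1B1 replicate 1 (0.47, adjusted p = 0.0648). AHSA1 rose by 0.33, lost without shNT replicate 2 (0.31, adjusted p = 0.0634). DNAJA2 rose by 0.33, lost without shNT replicate 1 (0.33, adjusted p = 0.0637), shNT replicate 2 (0.34, adjusted p = 0.0549) or shCYP1B1 replicate 2 (0.33, adjusted p = 0.0555). DNAJB6 rose by 0.43, lost without shNT replicate 2 (0.32, adjusted p = 0.0658).

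DNAJA1 and DNAJB1, among the strongest in RKO, were not higher in SW480. DNAJA1 measured 302 and 311 CPM in shNT and 254 and 242 CPM in shCYP1B1 (log2 -0.30 ± 0.16, adjusted p = 0.146 in edgeR), and DNAJB1 221 and 220 CPM in shNT and 179 and 175 CPM in shCYP1B1 (log2 -0.32 ± 0.16, adjusted p = 0.124). In both genes the knockdown libraries lay below both shNT libraries. Both passed as lower once either RKO overexpression library was left out, at -0.31 for DNAJA1 (adjusted p at most 8.78e-07) and -0.32 for DNAJB1 (adjusted p at most 1.16e-06). DNAJB4 had a log2 fold change of -0.17 (adjusted p = 0.508). STIP1 (0.18), CACYBP (-0.08) and CHORDC1 (0.00) did not pass, and STIP1 passed without either overexpression library (0.18, adjusted p at most 0.00057).

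The CCT subunits did not move as one in SW480. CCT8 rose by 0.24 (adjusted p = 0.00937 in edgeR), a call lost without shNT replicate 2 (0.22, adjusted p = 0.0748) or shCYP1B1 replicate 2 (0.22, adjusted p = 0.0741). CCT2 fell by 0.20 (adjusted p = 0.0343) and CCT7 by 0.21 (adjusted p = 0.0177). Both calls were lost without any 1 SW480 library, at -0.17 to -0.22 for CCT2 and -0.16 to -0.24 for CCT7, and that for CCT2 also with RLE scaling (-0.18, adjusted p = 0.0638) or DESeq2 (-0.18, adjusted p = 0.0606). The other 5 subunits lay between -0.14 and 0.02. CCT3 (-0.13) and CCT5 (-0.14) passed as lower without either RKO overexpression library, with adjusted p at most 0.00635 for CCT3 and 0.00244 for CCT5.

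**Figure D3:**
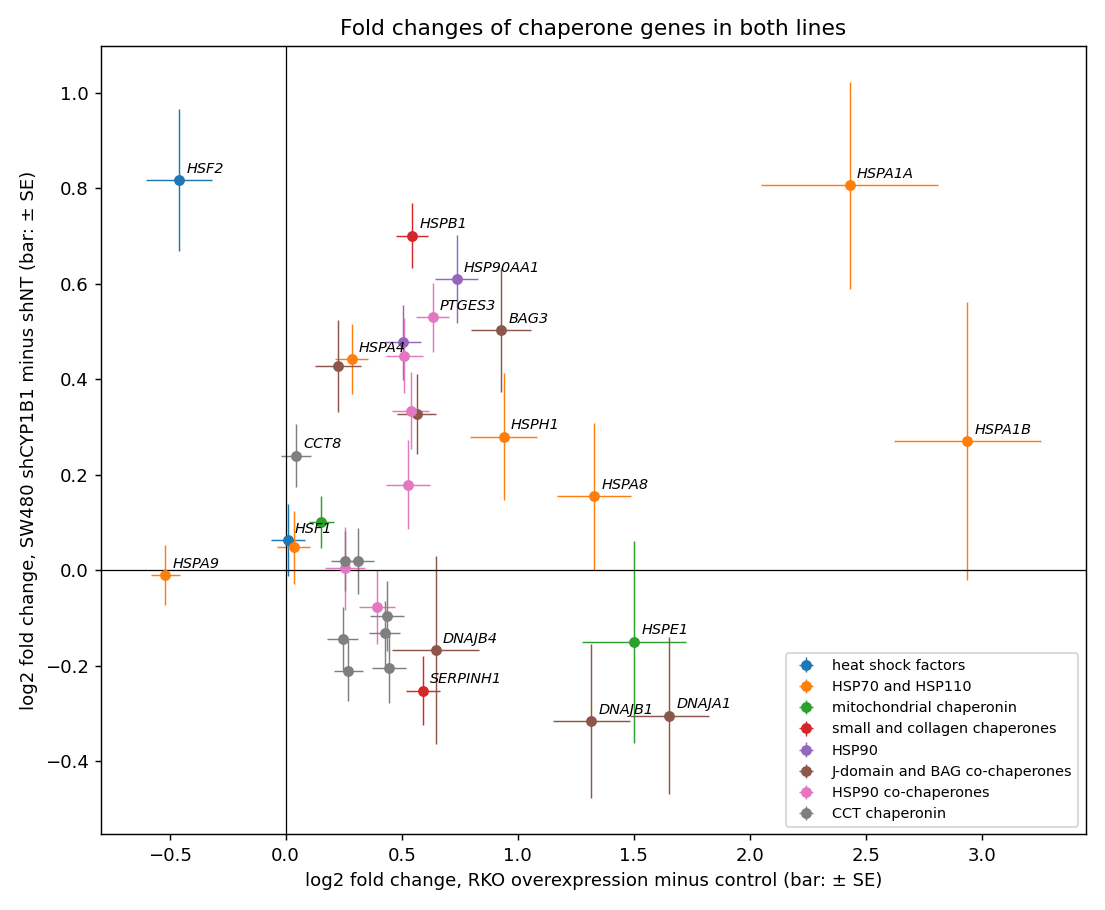
Log2 fold change of the members in RKO overexpression minus control (x axis) against SW480 shCYP1B1 minus shNT (y axis), with bars of 1 standard error each way, coloured by role and without CRYAB. HSPB1, HSP90AA1, PTGES3, BAG3 and HSPA1A lie above 0 on both axes, DNAJA1 and DNAJB1 are high in RKO and below 0 in SW480, and HSF2 is low in RKO and high in SW480.

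Set side by side, 10 members rose both when CYP1B1 was raised in RKO and when it was lowered in SW480: AHSA1, BAG3, DNAJA2, FKBP4, HSP90AA1, HSP90AB1, HSPA1A, HSPA4, HSPB1 and PTGES3. Of all genes tested, 4.49% rose in both. The SW480 calls for HSPA1A, AHSA1, BAG3 and DNAJA2 and the RKO call for HSPA4 were each lost without single libraries, as given above, and the summed HSPA1 genes did not pass in SW480. Another 15 rose in RKO and did not pass in SW480, and 3 (CCT2, CCT7 and SERPINH1) rose in RKO and fell in SW480, beside 5.9% and 3.45% of all genes. In SW480 the 15 ranged from -0.32 (DNAJB1) to 0.28 (HSPH1). Some of them passed as higher and others as lower without either overexpression library, as given above. The SW480 calls for CCT2, CCT7 and SERPINH1 were lost without any 1 SW480 library. HSF2 alone fell in RKO and rose in SW480, as did 3.14% of all genes, and its RKO call was lost without single libraries, as given above. HSPA9 fell in RKO and did not pass in SW480 (6% of all genes), and CCT8 and DNAJB6 passed as higher in SW480 alone (17.7%). CRYAB, HSF1, HSPA4L and HSPD1 passed in neither line, beside 37.5% of all genes. The outcome for HSPD1 depended on the library left out in both lines, as given above. The 2 lines share no control library. The change from low to high CYP1B1 in SW480 (shNT minus shCYP1B1) was subtracted from that in RKO (overexpression minus control), and the difference was tested. Cell line, kind of manipulation, vector and size of the CYP1B1 change cannot be told apart in this test. A rise under both manipulations gives a positive difference, so a positive value need not mean a larger rise in RKO. HSPB1, for example, rose by 0.55 in RKO and by 0.70 in SW480. By this test the difference was positive for 26 members and negative for 1 (edgeR, adjusted p below 0.05). Of all genes 42.6% were called, 21% positive and 21.6% negative. The members' median was 0.68, against -0.02 for all genes. The differences were 3.24 for HSPA1A, 3.21 for HSPA1B, 1.48 for HSPA8, 1.43 for BAG3, 1.35 each for DNAJA1, HSPE1 and HSP90AA1 and 1.25 for HSPB1. HSPA9 was the 1 member with a negative difference, at -0.53. For CCT2 (0.24, adjusted p = 0.0792), CCT7 (0.06, adjusted p = 0.635) and HSF2 (0.36, adjusted p = 0.187) the difference did not pass. How many members passed with a positive difference depended on the library left out, as did the number of all genes called, and the ranges of both are given below. Without overexpression replicate 2 the difference of HSPA1A was 2.44 and that of HSPA1B 2.39.

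The 2 lines also differed in their chaperone levels in the control groups. Between SW480 shNT and RKO control, 20 members were higher in SW480 and 12 lower (edgeR, adjusted p below 0.05), against 76.8% of all genes called, 41.2% higher and 35.6% lower. CRYAB, among the 20, had 0 counts in both RKO control libraries and 16 and 12 in shNT. The cell line and its control vector cannot be told apart in this comparison. HSPA1A was 70.1-fold higher in SW480 (log2 6.13 ± 0.33, adjusted p = 8.65e-09; 4.50 with limma on log2 of FPKM plus 1), HSPH1 20.6-fold higher (log2 4.36 ± 0.16, adjusted p = 2.34e-10) and HSPA1B 3.16-fold higher (log2 1.66 ± 0.31, adjusted p = 0.000418). The sum of HSPA1A and HSPA1B was 6.53-fold higher (log2 2.71 ± 0.31, adjusted p = 8.45e-06 in edgeR). HSPA1A had only 36 and 38 counts in RKO control. How reads were divided between the 2 genes is uncertain, so the fold of each gene alone is uncertain too. SERPINH1 (1.95), HSPA8 (1.61), HSPE1 (1.37), DNAJB1 (1.29), DNAJA1 (1.12) and CCT4 (1.01) also had a log2 fold change above 1, while HSF2 (-1.72), HSPA4L (-1.60) and HSPA9 (-1.41) were lower. The other 9 lower members ranged from -0.85 (CCT2) to -0.18 (HSPD1). This comparison and that of overexpression share the RKO control libraries. Under overexpression HSPA8 reached 1927 and 3062 CPM, beside 3052 and 3013 CPM in SW480 shNT. HSPH1 (35.3 and 53.1 CPM) remained far below SW480 shNT (468 and 480 CPM). So did HSPA1A (3.47 and 8.64 CPM, against 83.2 and 73.8 CPM), but HSPA1B (91.7 and 232 CPM) exceeded SW480 shNT (67.6 and 65.8 CPM). The sum of HSPA1A and HSPA1B was 95.2 and 241 CPM under overexpression, beside 151 and 140 CPM in SW480 shNT.

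Levels between genes were compared per length, in FPKM as deposited. In RKO control HSP90AB1 stood first (mean 840 FPKM), then HSPB1 (699), HSPD1 (674), HSP90AA1 (547) and HSPA8 (446), and no 2 neighbours among these overlapped between libraries. HSPH1 (4.17), HSPA1A (0.477) and CRYAB (0) were last. Under overexpression HSP90AB1 (1180), HSPA8 (1107), HSPB1 (1008) and HSP90AA1 (900) led, and each neighbouring pair of them overlapped. In SW480 shNT HSPA8 (1321) and HSPB1 (1263) led without differing beyond their spread, followed by HSP90AA1 (995), HSP90AB1 (708) and HSPD1 (578). HSPA1A stood at 32.5 FPKM there and HSPA1B at 26.4. In shCYP1B1 the order was HSPB1 (1992), HSP90AA1 (1473), HSPA8 (1427) and HSP90AB1 (956), with no overlap. The chaperonin subunits of CCT, which occur once each per ring, ranged in mean level from 96.2 FPKM (CCT4) to 394 FPKM (CCT7) in RKO control and from 118 FPKM (CCT2) to 408 FPKM (CCT7) in SW480 shNT.

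**Figure D4:**
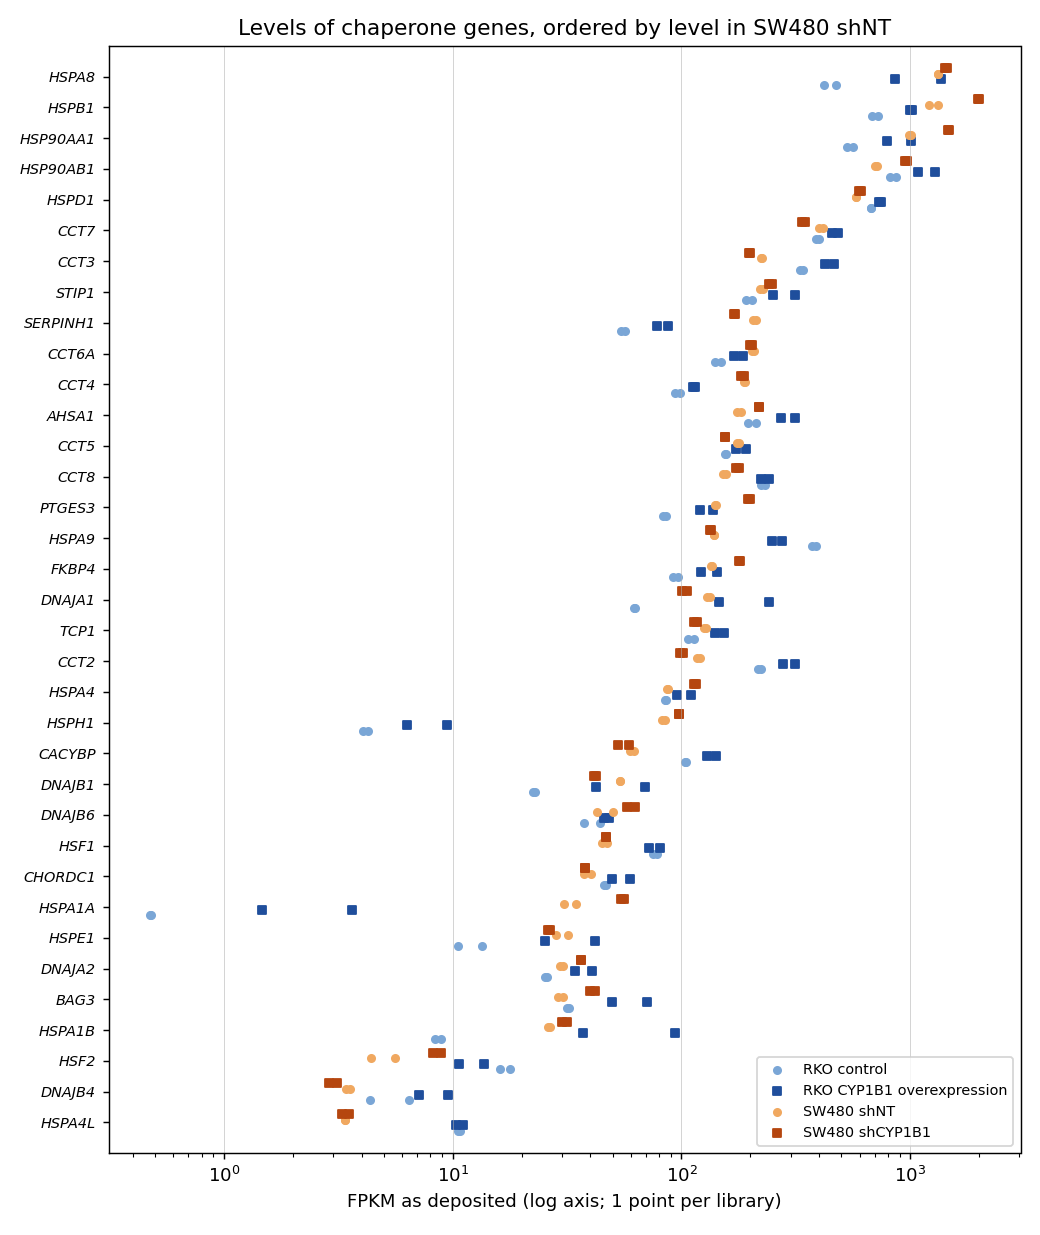
FPKM as deposited (x axis, log scale) of the members in every library (points), ordered by their mean in SW480 shNT, with CRYAB left out because it was 0 in RKO control. HSPA1A and HSPH1 show the widest gap between RKO control (means of 0.477 and 4.17 FPKM) and SW480 shNT (32.5 and 83.1 FPKM). How reads were divided between HSPA1A and HSPA1B is uncertain.

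Other genes of the same pathways were listed by family, and the counts for these lists stand beside 13.8% of all genes higher and 13.8% lower in RKO, and 25.3% each way in SW480. Of 16 other HSP70, HSP90, HSP60 and small heat shock protein genes tested, 3 rose and 3 fell in RKO (median log2 fold change 0.09), and 6 rose and 2 fell in SW480 (0.03). HSPA13, an HSP70 of the endoplasmic reticulum, fell by 0.64 in RKO, and HSPA5 (BiP, the main HSP70 of that compartment) by 0.41, while HSBP1, a small inhibitor of HSF1, rose by 0.50. In SW480 the heat shock factor HSF4 rose by 1.90, from 1.04 and 0.753 CPM to 3.57 and 3.13 CPM. The small heat shock protein HSPB8 rose by 1.34, a call lost without shNT replicate 1 (1.07, adjusted p = 0.0585) or shCYP1B1 replicate 1 (1.14, adjusted p = 0.0721), and HSPA2 rose by 0.95, all in edgeR.

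Of 39 other J-domain genes, 5 rose and 7 fell in RKO (median -0.09), shares near those of all genes, and 7 rose and 13 fell in SW480 (median -0.13). In RKO DNAJC6, the auxilin that uncoats clathrin vesicles, fell by 0.80. DNAJC27 fell by 0.59, but not when control replicate 2 (-0.48, adjusted p = 0.152) or overexpression replicate 2 (-0.50, adjusted p = 0.0546) was removed. DNAJC15, which met the filter on low counts through SW480, passed on 1 and 1 counts in control and 7 and 7 under overexpression, a call lost without control replicate 1 (adjusted p = 0.0673) or 2 (adjusted p = 0.0895) and with limma on FPKM. In SW480 DNAJC30 fell by 1.64 and DNAJC12 by 1.36, and DNAJB5 rose by 1.16. Of 25 other co-chaperones of HSP70 and HSP90, 8 rose and 3 fell in RKO (median 0.15), and 6 rose and 4 fell in SW480 (-0.05). BAG1, a nucleotide exchange factor of HSP70, rose by 1.11 in RKO, from 12.3 and 13.5 CPM to 23.1 and 32.7 CPM, and fell by 1.01 in SW480, from 30.4 and 33.2 CPM to 14.1 and 17.5 CPM. HSPBP1 (0.93) and NUDC (0.90) rose in RKO, and in SW480 CDC37L1 rose by 1.06 and PPP5C, a phosphatase bound to HSP90, fell by 0.97.

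Prefoldin hands nascent actin and tubulin to CCT. Of 11 prefoldin and CCT cofactor genes, 3 rose and 1 fell in RKO (median 0.06) and 3 rose and 2 fell in SW480 (-0.08). PFDN2 fell by 0.56 in RKO, a call lost without control replicate 1 (-0.54, adjusted p = 0.0591) or control replicate 2 (-0.58, adjusted p = 0.0555), and rose by 0.67 in SW480. PDCL3 rose by 0.37 in RKO, a call lost without control replicate 1 (0.44, adjusted p = 0.0562), control replicate 2 (0.30, adjusted p = 0.177) or overexpression replicate 2 (0.32, adjusted p = 0.0598), and fell by 0.94 in SW480. PFDN6 rose by 0.57 in RKO and PFDN4 by 0.60 in SW480. Of 15 other genes known to be induced by heat, some of which also stand in the lists above, 5 rose and 0 fell in RKO (median 0.22), and 9 rose and 1 fell in SW480 (0.26). IER5, which acts on HSF1, rose by 0.97 in RKO, from 13.7 and 14.8 CPM to 25.8 and 30.3 CPM, and DEDD2 by 0.82. DNAJA4 rose by 0.50 there, a call lost without control replicate 2 (0.36, adjusted p = 0.108). In SW480 CRYBA4 went from 1 count in each shNT library to 51 and 77 counts in shCYP1B1, and HSPB8 and DNAJB5 rose as given above.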

How the data were processed

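Counts and FPKM of 16829 genes in 8 libraries, 2 per group, were used, with groups and replicate numbers from the sample titles. The authors deposited raw read counts per gene, whole numbers, and FPKM for the same genes; the FPKM equal the counts over a length per gene and the library total. Per the submitters' processing notes the build was GRCh38.p13. Which aligner, counting tool and annotation were used, and whether counting used strand, is not given in the sources used here, so reads of overlapping or antisense genes cannot be separated. Counts were filtered with filterByExpr (minimum count 10, minimum total 15), scaled by TMM and fitted over all 8 libraries with edgeR 4.0.16 (R 4.3.3), 1 coefficient per group, 4 residual degrees of freedom, and the quasi-likelihood test with Benjamini-Hochberg adjustment over 14157 genes. CPM in the text are TMM-scaled, except those of CYP1B1. Exact permutation of 2 libraries against 2 cannot go below p = 0.333 and was not used. The members and lists were chosen with earlier results of these data known. Values in every library are given for HSPA1A, HSPA1B, their sum, HSF1, HSF2 and the 8 members per line with the largest change that passed without overlap, and up to 3 genes per related list are named among those that passed and reached 1 CPM in a group. Alternatives were RLE scaling, library size only, other filters, DESeq2 1.42.0, limma 3.58.1 on log2 of FPKM plus 1 or 0.1, each line alone, a replicate block, a test against a fold of 1.5, and each library left out. Replicate numbers did not pair the libraries (correlations of deviations -0.0053 and -0.012). The steps were tested on simulated data. Gene positions and shared 75-base stretches came from GENCODE release 29 and promoters from RefSeq.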

Additional observations from a re-analysis of the deposited data

Results flagged for a closer look

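The change from low to high CYP1B1 differed between the RKO and SW480 comparisons for 27 members and for the summed HSPA1 genes. This was edgeR's test of the difference itself, with adjusted p below 0.05, which called 42.6% of all genes. The difference was RKO overexpression minus control, less SW480 shNT minus shCYP1B1, on the log2 scale, so a rise under both manipulations gives a positive value. Cell line, kind of manipulation, vector and size of the CYP1B1 change cannot be told apart in it. In the HSP70 and HSP110 group the difference was 3.50 for the sum of HSPA1A and HSPA1B, 3.24 for HSPA1A, 3.21 for HSPA1B, 1.48 for HSPA8, 1.22 for HSPH1 and 0.73 for HSPA4. HSPA9 had the 1 negative difference, -0.53. The mitochondrial chaperonin genes differed by 1.35 (HSPE1) and 0.25 (HSPD1), HSPB1 by 1.25 and SERPINH1 by 0.34. HSP90AA1 differed by 1.35 and HSP90AB1 by 0.98. Among J-domain genes and BAG3, the values were 1.35 for DNAJA1, 0.89 for DNAJA2, 1.00 for DNAJB1, 0.65 for DNAJB6 and 1.43 for BAG3. The HSP90 co-chaperones gave 1.16 for PTGES3, 0.96 for FKBP4, 0.87 for AHSA1, 0.71 for STIP1 and 0.32 for CACYBP. The CCT subunits gave 0.34 for TCP1, 0.33 for CCT6A, 0.30 for CCT3, 0.29 for CCT8 and 0.28 for CCT4. HSPD1, DNAJB6 and CCT8 passed this test without passing in RKO. Without any 1 SW480 library HSPD1 (0.26 to 0.29), SERPINH1 (0.33 to 0.39) and TCP1 (0.34 to 0.39) no longer passed, and neither did SERPINH1 (0.30) and TCP1 (0.29) without control replicate 2. CACYBP, CCT3, CCT4, CCT6A and CCT8 did not pass without 1 or more of the RKO control and SW480 libraries, at 0.25 to 0.36. DNAJB1, HSPE1 and the others named kept their side of the threshold without each library in turn. With library size only, CACYBP (0.26), CCT3 (0.23), CCT4 (0.21) and CCT8 (0.23) did not pass. With limma on FPKM plus 1 unfiltered, DNAJB1 (0.87), SERPINH1 (0.27), CACYBP (0.25) and CCT8 (0.22) did not.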

How the results depend on the processing

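With 2 libraries per group, the test had 4 residual degrees of freedom. The test against a fold of 1.5 gave 89 genes in RKO, 1994 in SW480, 1961 for the difference between lines and 6851 between control groups. It left 6 members higher in RKO, 0 in SW480, 14 for the difference and 13 in SW480 shNT over RKO control, with 0, 0, 0 and 5 lower. Fitted alone, RKO gave 2294 genes. Members lower in RKO numbered 1 with limma on FPKM plus 0.1, with limma on FPKM plus 1 unfiltered, and with RKO alone. Members lower in SW480 numbered 5 with library size only and with each limma fit, and 8 with SW480 alone. The summed HSPA1 change in SW480 passed with SW480 alone (0.59, adjusted p = 1.9e-27) and with the replicate block (0.59, adjusted p = 0.0318). Beyond that, the block gave 27 members higher and 2 lower in RKO, 13 and 2 in SW480, 24 and 1 for the difference and 19 and 8 between control groups, and the libraries were not paired by number. In the first 3 of these comparisons it ended 4 calls: CHORDC1 in RKO (0.25), CCT2 in SW480 (-0.20) and the differences for CCT4 (0.28) and CCT8 (0.29). Between control groups it put HSPA1A at 6.72. Limma on FPKM plus 1 lowers the change of weakly expressed genes by construction, and put HSPA1A at 1.196 in RKO, 1.94 for the difference and 4.50 between control groups, and in SW480 CRYBA4 at 1.57, HSF4 at 0.81 and DNAJC12 at -0.49. The cause of the other changes was not tested.

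Leaving out 1 library gave 1784 to 5629 genes in RKO, 5076 to 8756 in SW480, 4576 to 7142 for the difference and 9747 to 11714 between control groups. Members higher ranged over 23 to 30, 7 to 18, 18 to 30 and 15 to 21 in that order, and members lower over 1 to 2, 0 to 7, 1 to 1 and 8 to 13. The summed HSPA1 change ranged over 2.10 to 3.44, 0.53 to 0.64, 2.68 to 4.02 and 2.65 to 2.76. Of the other alternatives for these counts and the sum, 157 stayed on the same side or within 1.5 times, 21 moved and 2 passed anew.

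Single genes changed sign 26 times, all near 0 and none past the threshold. In SW480, with library size only and then with limma on FPKM plus 1, plus 0.1 and plus 1 unfiltered, CCT4 was at -0.0241, -0.0242, -0.0243 and -0.0242, CCT6A at -0.0250, -0.0248, -0.0249 and -0.0248, and CHORDC1 at -0.0397, -0.0377, -0.0386 and -0.0377. HSPA9 in SW480 was at 0.0148 with RLE scaling and with DESeq2. HSF1 in RKO was at -0.0080 with library size only and -0.0098, -0.0099 and -0.0098 with the limma fits. Leaving out 1 library, the ranges were -0.15 to 0.0126 for CACYBP, -0.0359 to 0.0608 for CHORDC1 and -0.0141 to 0.0080 for HSPA9 in SW480, and -0.0050 to 0.0965 for CCT8, -0.0707 to 0.0871 for HSF1 and -0.0214 to 0.0899 for HSPA4L in RKO.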
